A study of Mus musculus with 50 samples.

Results

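The genes described here are 9 contractile and mural cell genes measured by bulk RNA-seq in mouse p53/MCA soft tissue sarcomas. They are the smooth muscle actins Acta2 and Actg2, the myosin genes Myh11 and Myl9, the actin-binding genes Tagln, Cnn1 and Lmod1, and the mural cell genes Rgs5 and Pdgfrb. The members were named by gene symbol, with earlier results of these data known, and each matched 1 of the 37469 gene identifiers in the count table. All 9 passed the low-count filter that left 19327 genes for testing.

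The study compared primary sarcomas with transplanted sarcomas after radiotherapy (RT) and PD-1 blockade. Primary tumors arose in the gastrocnemius muscle of Trp53 fl/fl 129/SvJae mice, male and female and 6 to 10 weeks old at induction, after injection of an adenovirus carrying Cre recombinase and the carcinogen 3-methylcholanthrene (MCA). The promoter driving Cre and the cell of origin were not given in the sources used here. Transplants were grown in the same muscle of syngeneic wild-type 129/SvJae mice from the line 402230, which came from a primary p53/MCA sarcoma, so that all transplants stand for 1 tumor of origin while each primary tumor arose on its own. Each model had 4 treatments, namely 0 or 20 Gy to the hind limb with either an isotype control antibody or the anti-PD-1 antibody muDX400 (200 µg), and tumors were taken 3 days after treatment. Each treatment group held 8 primary tumors or 4 transplants, 48 tumors in 8 groups, and tumors given 0 Gy and isotype are called untreated. The age of the transplant hosts was not given in the sources used here. Replicate numbers below were assigned in accession order and only name a tumor.

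Smooth muscle cells contract when calcium signalling drives phosphorylation of the myosin regulatory light chain, encoded by Myl9, and the smooth muscle myosin heavy chain, encoded by Myh11, then pulls on actin filaments. Myofibroblasts, which are activated fibroblasts of wounds and tumors, take up part of this programme, above all Acta2 and Tagln, while Myh11 and Lmod1 stay closer to mature smooth muscle. Pericytes, the mural cells of small vessels, carry Pdgfrb, the receptor for the endothelial growth factor PDGF-B, and Rgs5, a regulator of G-protein signalling. Many contractile genes are switched on by serum response factor (SRF) with the coactivators myocardin, MRTF-A and MRTF-B, which bind CArG boxes, short elements of CC, a core rich in A and T, and GG.

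The promoter sequences show this element directly. Of the 9 members, 5 had an entry in the table of RefSeq promoters (build GRCm38.p6), each of 300 bases with 250 before and 50 after the start. Windows of 30 bases around the CArG boxes of Acta2 and Myl9 follow, 5′ to 3′ on the strand of the gene, because these were the members of the table that held any. Capitals mark the box.
Acta2, chr19:34255438-34255467, minus strand: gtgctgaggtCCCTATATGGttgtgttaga
Acta2, chr19:34255388-34255417, minus strand: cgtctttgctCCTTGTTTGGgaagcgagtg
Myl9, chr2:156775293-156775322, plus strand: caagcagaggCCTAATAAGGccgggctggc
Myl9, chr2:156775355-156775384, plus strand: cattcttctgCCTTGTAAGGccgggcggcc
The search covered both strands and allowed 1 base other than A or T among the 6 core bases. The Acta2 boxes lay 84 and 34 bases before the RefSeq start, each with 1 such base. Those of Myl9 lay 161 and 99 bases before the start, the first with a perfect core and the second with 1 other base. No match was found in the windows of Cnn1, Lmod1 and Rgs5, and Actg2, Myh11, Tagln and Pdgfrb had no entry. Of all 32851 promoters listed there, 9.98% held at least 1 match, 1.63% a perfect match and 0.822% at least 2 matches. A match describes the letters and is no evidence of binding in these tumors.

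The genes lie on separate chromosomes for the most part (GENCODE M21, GRCm38). Acta2 is at chr19:34241090-34255590, Actg2 at chr6:83512905-83536265, Myh11 at chr16:14194535-14291372 and Myl9 at chr2:156775420-156781658. Tagln (chr9:45929619-45936058) and Cnn1 (chr9:22099216-22109630) share chromosome 9, Lmod1 (chr1:135324807-135368065) and Rgs5 (chr1:169655501-169695813) share chromosome 1, and Pdgfrb is at chr18:61045150-61085061. Exons of Tagln overlap those of Pcsk7 and of the antisense gene Gm48529 on the opposite strand. No source says whether reads were counted by strand, and Tagln counts could therefore hold reads of those genes. The proteins of Acta2, Actg2 and the skeletal actin Acta1 are closely alike, as are those of Myl9 and its paralogs Myl12a and Myl12b. Whether any reads were misassigned or lost between these related genes was not tested, and their counts carry that uncertainty.

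The 48 tumor libraries held between 31810461 and 54008259 counts each. Levels are in CPM, counts per 1000000 counts of the library, scaled by TMM normalization factors, and before that scaling 1 CPM stood for at least 31.8 reads. Marker lists for other cell types varied widely between tumors. The summed CPM of 9 skeletal muscle genes (Acta1, Ckm and others) ran from 14.0 to 72723 with a median of 1600 in primary tumors and from 75.6 to 19001 with a median of 5136 in transplants. That of 9 endothelial genes ran from 186 to 934 and from 307 to 582, and that of 7 leukocyte genes from 1313 to 6689 and from 1469 to 6996. In such bulk samples, fewer cells of a type and less RNA per cell cannot be told apart.

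A pair of further libraries came from 402230 itself, 1 labelled parental tumor and 1 labelled cell line, and their marker genes went against these labels. The library labelled parental tumor had 0.112 CPM each of Ptprc (CD45, on all leukocytes) and Pecam1 (CD31, on endothelium) and 611 CPM of the proliferation gene Mki67. The library labelled cell line had 81.9 CPM of Ptprc, 104.4 CPM of Pecam1 and 738 CPM of Lyz2, a macrophage gene. Both were made with single indexes and the tumors with dual indexes. They are named here by their labels only, entered no main test, and are described after the tumors.

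Levels per kilobase of exon set the members in order. In untreated primary tumors the median was highest for Acta2 (252 CPM per kilobase), followed by Tagln (192), Myl9 (119.4), Pdgfrb (38.3), Rgs5 (20.3), Cnn1 (4.34), Myh11 (0.636), Actg2 (0.538) and Lmod1 (0.305). The ranges of all neighbours in this order overlapped. In untreated transplants the order of the medians per kilobase was Acta2 (47.3), Myl9 (19.6), Rgs5 (17.5), Pdgfrb (15.1), Tagln (11.7), Actg2 (1.29), Myh11 (0.682), Cnn1 (0.431) and Lmod1 (0.315). Here neighbours overlapped except Acta2 above Myl9 and Tagln above Actg2. Tagln and Cnn1 thus stood lower in the order of the transplants than in that of the primary tumors. The mature smooth muscle genes Myh11 and Lmod1 were near the bottom in both models.

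**Figure D1:**
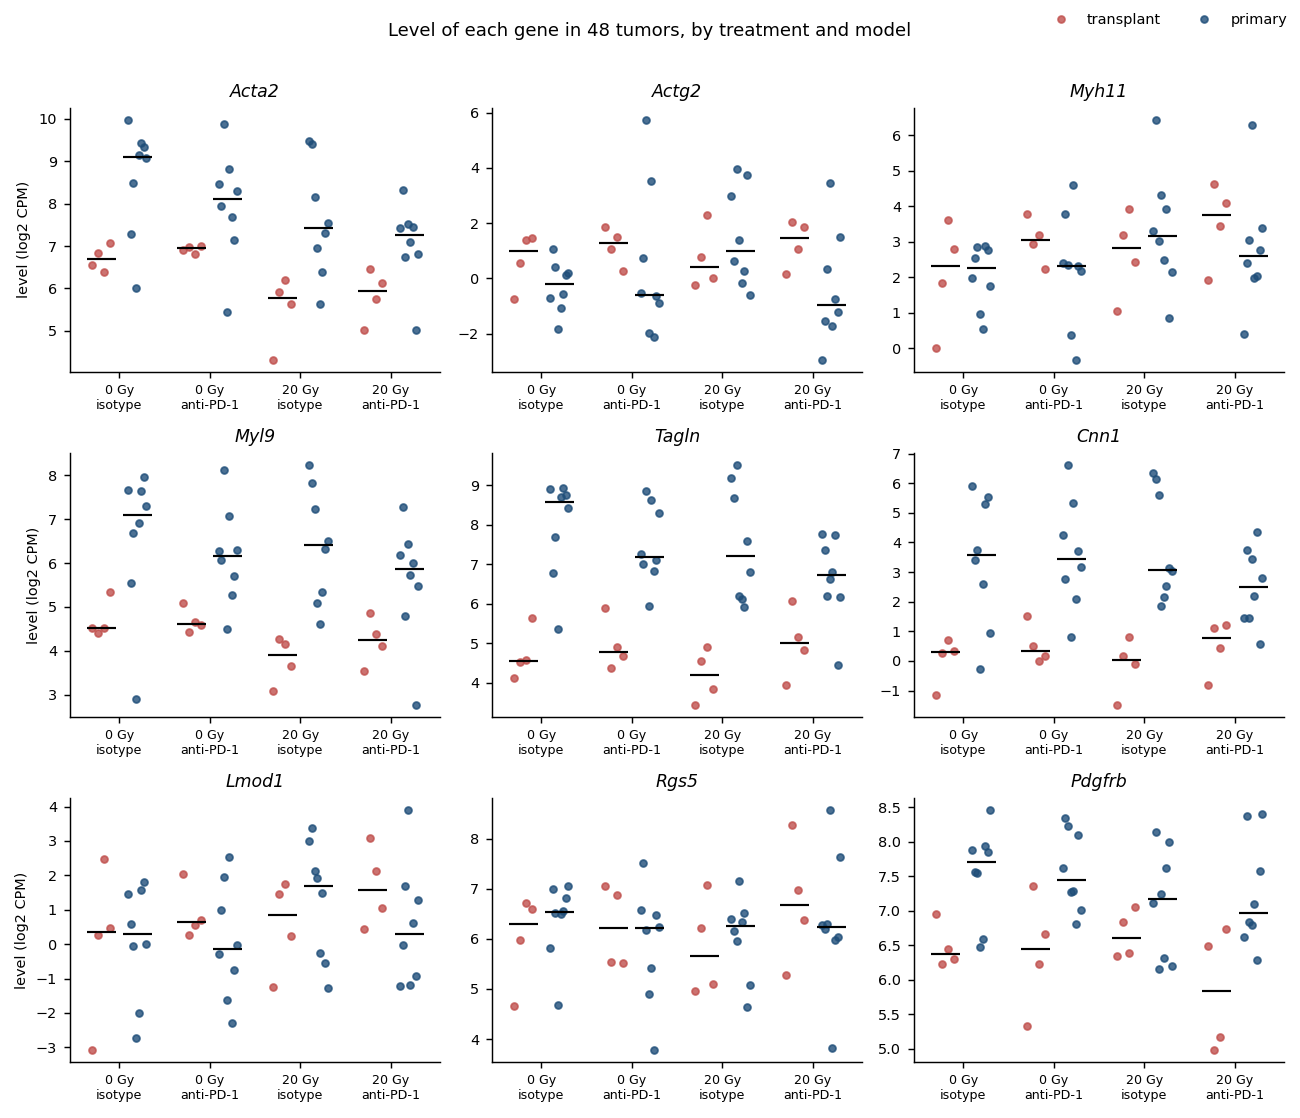
Level of each of the 9 genes (log2 CPM) in every tumor, by model and treatment, with 1 point per tumor and a black line at each group's median. Transplants (4 a group) sit below most primary tumors (8 a group) for Acta2, Myl9, Tagln and Cnn1, and among them for Myh11, Lmod1 and Rgs5.

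To compare the models, transplants were set against primary tumors within each treatment and over the mean of the 4 treatments, with edgeR's quasi-likelihood test and Benjamini-Hochberg adjustment over all genes. Tagln, Cnn1, Myl9, Acta2 and Pdgfrb were lower in transplants over the mean of 4 treatments, by 14.6-fold for Cnn1, 7.61-fold for Tagln, 4.70-fold for Myl9, 3.69-fold for Acta2 and 2.10-fold for Pdgfrb. No member was higher. The 5 of 9 lower members stand beside a background of 19.1% of all tested genes lower and 15.7% higher in transplants. The median log2 fold change was -1.07 over the members and 0.00 over all genes. Myh11, Lmod1, Rgs5 and Actg2 did not pass the test.

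Acta2, the alpha smooth muscle actin that marks myofibroblasts and vascular smooth muscle, had the highest median level per kilobase of the members in all 8 groups. Untreated transplants had 93.9, 113.8, 84.3 and 134.4 CPM, and untreated primary tumors 64.7 to 1005 CPM with a median of 553. At 20 Gy with isotype the transplants had 19.9, 60.7, 72.8 and 49.4 CPM and the primary tumors 49.3 to 712 CPM with a median of 172. The highest untreated primary tumor had 15.5 times the Acta2 of the lowest, which lay below all 4 untreated transplants, and at 20 Gy with isotype the lowest primary tumor lay within the range of the transplants. With anti-PD-1 alone transplants had 120.6, 126.8, 113.2 and 128.9 CPM against 43.5 to 937 CPM with a median of 279.5, and with the combination 32.6, 88.1, 53.4 and 69.7 CPM against 32.2 to 318 CPM with a median of 154. Acta2 was lower in transplants over the mean of 4 treatments (log2 fold change -1.88 ± 0.33 (SE), 95% CI -2.54 to -1.23, adjusted p = 1.38e-05). Within treatments it passed the test when untreated (-2.24 ± 0.66, adjusted p = 0.0245) and at 20 Gy with isotype (-2.49 ± 0.67, adjusted p = 0.0228), but not with anti-PD-1 (-1.46 ± 0.63, adjusted p = 0.161) or the combination (-1.34 ± 0.63, adjusted p = 0.183). The untreated call was lost without untreated transplant 1 (adjusted p = 0.0749), without any of the other 3 untreated transplants, without a low-count filter (adjusted p = 0.0516) and by limma voom (adjusted p = 0.0507). The call at 20 Gy with isotype was lost without transplant 1 of that group (adjusted p = 0.0991), transplants 2 or 4, or primary tumor 2 (adjusted p = 0.0509), and when the compared groups were fitted alone (adjusted p = 0.0750).

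Actg2, the gamma smooth muscle actin of the gut and bladder, was scarce in both models. Untreated transplants had 0.549, 1.42, 2.59 and 2.69 CPM, and untreated primary tumors 0.235 to 2.05 CPM with a median of 0.837. A few primary tumors stood high, among them anti-PD-1 tumor 3 with 53.3 CPM and 20 Gy isotype tumor 3 with 15.7 CPM. The model difference over the mean of 4 treatments had an interval that spanned 0 (log2 fold change -0.47 ± 0.56 (SE), 95% CI -1.60 to 0.66, adjusted p = 0.552). Within treatments the estimates differed in sign and none passed the test. They were 0.98 untreated, -1.85 with anti-PD-1, where tumor 3 entered, -1.40 at 20 Gy with isotype and 0.38 with the combination.

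Myl9, the regulatory light chain of smooth muscle and non-muscle myosin, followed Acta2. Untreated transplants had 22.7, 21.3, 22.8 and 40.3 CPM and untreated primary tumors 7.38 to 249 CPM with a median of 138.7. At 20 Gy with isotype all 4 transplants (8.43, 19.1, 17.8 and 12.44 CPM) lay below all 8 primary tumors (24.4 to 301 CPM with a median of 85.5). With anti-PD-1 transplants had 33.8, 21.4, 25.02 and 24.0 CPM against 22.4 to 277 CPM with a median of 72.1, and with the combination 11.5, 28.9, 20.7 and 17.2 CPM against 6.78 to 155 CPM with a median of 58.3. In each of the other 3 treatments at least 1 primary tumor fell within or under the transplants. Myl9 was lower over the mean of 4 treatments (log2 fold change -2.23 ± 0.35 (SE), 95% CI -2.94 to -1.53, adjusted p = 2.66e-06). It passed the test when untreated (-2.34 ± 0.70, adjusted p = 0.0264) and at 20 Gy with isotype (-3.04 ± 0.73, adjusted p = 0.00960), with -1.84 ± 0.68, adjusted p = 0.0899 for anti-PD-1 and -1.70 ± 0.68, adjusted p = 0.113 for the combination. Without untreated transplant 2 the untreated adjusted p was 0.0893 (the call was also lost without any of the other 3), and without 20 Gy isotype transplant 4 that of the 20 Gy comparison was 0.0526 (its call was also lost without transplant 1). The untreated call of Myl9 was also lost without a low-count filter (adjusted p = 0.0558) and by limma voom (adjusted p = 0.0939). By DESeq2, Myl9 also passed with anti-PD-1 (-1.87, adjusted p = 0.0253) and with the combination (-1.73, adjusted p = 0.0438).

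Myh11, the smooth muscle myosin heavy chain and the most specific marker of mature smooth muscle among the members, did not pass the test between models. Untreated transplants had 0.954, 3.51, 12.3 and 6.86 CPM and untreated primary tumors 1.41 to 7.41 CPM with a median of 4.83. The ranges overlapped in every treatment. The difference over the mean of 4 treatments was -0.20 ± 0.43, adjusted p = 0.762, with a 95% CI of -1.06 to 0.67, so that a change of nearly 1 log2 unit lower was still within the interval.

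Tagln (transgelin, also called SM22), an actin-binding protein of smooth muscle and myofibroblasts, had the lowest adjusted p of the members between models. Untreated transplants had 17.4, 22.8, 23.9 and 49.5 CPM, and untreated primary tumors 40.7 to 483 CPM with a median of 381. With anti-PD-1 all transplants (59.2, 20.7, 29.7 and 25.6 CPM) were below all primary tumors (61.1 to 458 CPM with a median of 146), and the same held at 20 Gy with isotype, where transplants had 10.8, 23.5, 30.03 and 14.4 CPM and primary tumors 60.4 to 727 CPM with a median of 152. Of all 32 primary tumors, 28 had more Tagln than any of the 16 transplants. With the combination the groups overlapped, at 15.4, 67.1, 35.9 and 28.2 CPM in transplants against 21.7 to 216 CPM with a median of 105.2 in primary tumors. Tagln was lower over the mean of 4 treatments (log2 fold change -2.93 ± 0.36 (SE), 95% CI -3.65 to -2.21, adjusted p = 1.98e-08). It passed when untreated (-3.46 ± 0.74, adjusted p = 0.00160), with anti-PD-1 (-2.70 ± 0.70, adjusted p = 0.0125) and at 20 Gy with isotype (-3.82 ± 0.75, adjusted p = 0.00142), while the combination gave -1.73 ± 0.66, adjusted p = 0.0992. By DESeq2, Tagln passed with the combination as well (-1.74, adjusted p = 0.0374).

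Cnn1 (calponin 1), which restrains myosin in smooth muscle, had the largest fold difference among the members. Untreated transplants had 0.406, 1.15, 1.58 and 1.21 CPM, and untreated primary tumors 0.782 to 59.99 CPM with a median of 11.9. At 20 Gy with isotype all transplants (0.311, 1.09, 1.70 and 0.886 CPM) were below all primary tumors (3.57 to 81.6 CPM with a median of 8.41). With anti-PD-1 transplants had 2.79, 1.38, 0.945 and 1.07 CPM against 1.69 to 97.7 CPM with a median of 10.9, and with the combination 0.520, 2.10, 1.31 and 2.27 CPM against 1.43 to 20.3 CPM with a median of 5.70. Cnn1 also varied most widely of the called members among primary tumors. It was lower over the mean of 4 treatments (log2 fold change -3.87 ± 0.56 (SE), 95% CI -4.99 to -2.75, adjusted p = 5.44e-07), and passed when untreated (-4.35 ± 1.14, adjusted p = 0.0107), with anti-PD-1 (-3.94 ± 1.11, adjusted p = 0.0215) and at 20 Gy with isotype (-4.86 ± 1.18, adjusted p = 0.00972), but not with the combination (-2.33 ± 1.02, adjusted p = 0.149). The anti-PD-1 call was lost without transplant 3 of that group (adjusted p = 0.0842, and likewise without any of the other 3) or without primary tumor 3, the tumor with 97.7 CPM (adjusted p = 0.0547). The 20 Gy isotype call was lost without transplant 4 (adjusted p = 0.0526) or transplant 1. By limma voom none of these 3 Cnn1 calls passed, with adjusted p of 0.108 untreated, 0.150 with anti-PD-1 and 0.0876 at 20 Gy with isotype. By DESeq2, Cnn1 passed with the combination as well (-2.36, adjusted p = 0.0474).

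Lmod1 (leiomodin 1), which starts actin filaments in smooth muscle, had the lowest median level per kilobase of the members in untreated tumors of both models. Untreated transplants had 0.0716, 1.15, 5.52 and 1.35 CPM and untreated primary tumors 0.104 to 3.48 CPM with a median of 1.204. The lowest transplant value rested on 3 reads, so its level is uncertain from counting alone. The models overlapped in every treatment, and the difference over the mean of 4 treatments was -0.02 ± 0.48, adjusted p = 0.984 (95% CI -0.98 to 0.95).

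Rgs5, the pericyte gene, was not called between models. Untreated transplants had 25.1, 63.0, 104.6 and 96.5 CPM, and untreated primary tumors 25.7 to 133.4 CPM with a median of 92.5. Its interval over the mean of 4 treatments, -0.60 to 0.59 on the log2 scale around -0.01, was among the narrowest, and 0.990 was the adjusted p.

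Pdgfrb, the receptor that pericytes and fibroblasts share, was lower in transplants although Rgs5 was not called. Untreated transplants had 124.4, 74.8, 87.1 and 78.5 CPM, and untreated primary tumors 88.9 to 352 CPM with a median of 209.7. With the combination transplants had 89.9, 31.7, 36.1 and 106.1 CPM against 78.3 to 337 CPM with a median of 125.8. The groups overlapped in every treatment. Over the mean of 4 treatments Pdgfrb was lower (log2 fold change -1.07 ± 0.22 (SE), 95% CI -1.51 to -0.63, adjusted p = 1.45e-04). Within treatments it passed only with the combination (-1.41 ± 0.44, adjusted p = 0.0449), where the call was lost without transplant 3 of that group (adjusted p = 0.225), and also without its transplants 1 or 2, untreated transplants 2, 3 or 4, anti-PD-1 transplant 3, or 20 Gy isotype transplants 1 or 3. It was also lost without a low-count filter (adjusted p = 0.0850) and with the compared groups fitted alone (adjusted p = 0.198). The latter fit called only 2 genes higher and 0 lower of 17674. Adding the library labelled parental tumor of 402230 to the untreated primary tumors gave an adjusted p of 0.0660. The markers of that library went against its label, so that fit is no check of the call. The other 3 treatments gave -1.15 ± 0.44, adjusted p = 0.0811 when untreated, -1.11 ± 0.44, adjusted p = 0.111 with anti-PD-1 and -0.60 ± 0.42, adjusted p = 0.476 at 20 Gy with isotype. The untreated difference passed by DESeq2 (-1.15, adjusted p = 0.0456) and by edgeR with the compared groups fitted alone (-1.15, adjusted p = 0.0475).

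By treatment, 4 of 9 members were lower in untreated transplants (background 6.41% of all genes lower), 2 with anti-PD-1 (3.96%), 4 at 20 Gy with isotype (2.4%) and 1 with the combination (3.72%). These comparisons share libraries with the mean of 4 treatments and add no separate evidence to it. For the values above that did not overlap between models, the share over all genes was not counted. All 5 calls over the mean of 4 treatments held with each transplant left out in turn and under each of the other settings tried. Leaving out transplants does not test the tumor of origin, which all of them share.

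**Figure D2:**
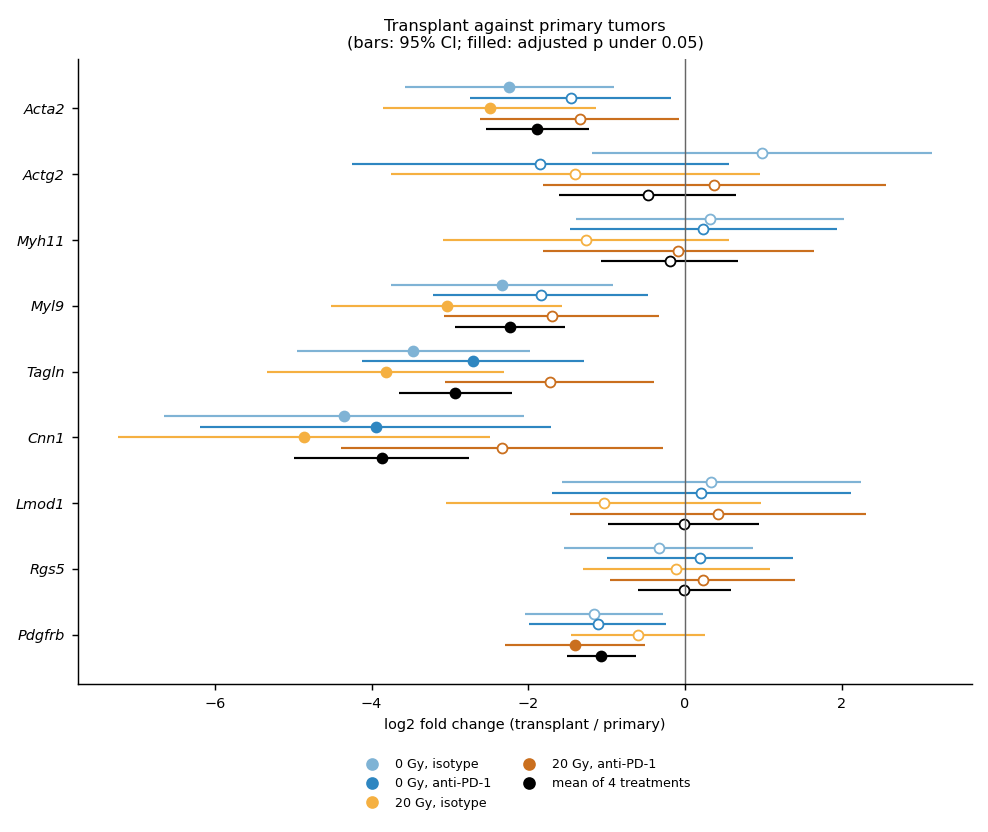
Difference between transplants and primary tumors (log2 fold change, transplant over primary) for each gene in each of the 4 treatments and over their mean, with 95% CI and filled points at an adjusted p under 0.05. Cnn1, Tagln, Myl9, Acta2 and Pdgfrb lie left of 0 with filled points for the mean, and Actg2, Myh11, Lmod1 and Rgs5 have intervals that include 0.

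Skeletal muscle content varied beside these values. None of its 9 marker genes passed the test between models (median log2 fold change 0.54, higher in transplants), and with their mean level as a covariate the 5 calls stayed while the estimates of the uncalled members moved down, to -0.71 for Lmod1 (adjusted p = 0.140), -0.68 for Myh11 (adjusted p = 0.178) and -0.35 for Rgs5 (adjusted p = 0.296). Whether muscle content plays a part in the uncalled results was not tested further. Of 7 leukocyte genes, 2 were higher in transplants, Cd3e (1.34) and Ptprc (1.01), and 1 of 9 endothelial genes was lower, Cdh5 (-0.61). Of 5 adipose genes, 2 were higher, Cidec (1.71) and Fabp4 (1.16). The part of these cells in the members' values was not tested.

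Other genes of the contractile programme were read from lists, to be set beside the 19.1% of all genes lower and 15.7% higher in this comparison. Of 16 further smooth muscle contractile genes, 4 were lower and 1 higher in transplants over the mean of 4 treatments (list median -0.30, beside 0.00 over all genes). The lower ones by size were Vcl (vinculin, -0.64), Actn1 (alpha-actinin 1, -0.59), Cald1 (caldesmon, -0.48) and Smtn (smoothelin, -0.42), and Des (desmin, shared with skeletal muscle) was higher (1.63). Of 8 regulators linked to SRF, Heyl (a Notch target, -0.83) and Mrtfa (-0.41) were lower and Foxf1 (1.16) higher, with a list median of -0.17. Srf itself (0.07) and Myocd, the gene of myocardin (-0.64), did not pass. Of 8 contraction signalling genes, Ppp1r12a, a myosin phosphatase subunit (-0.34), and Rhoa (-0.17) were lower. The shares of lower genes in these 3 lists, 4 of 16, 2 of 8 and 2 of 8, lay near that background.

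The pathway of Pdgfrb was read from 4 ligand genes and the related receptor gene Pdgfra, against the same background. Of these 5 genes, 3 were lower in transplants over the mean of 4 treatments, namely the Pdgfrb ligand gene Pdgfd (-1.20), Pdgfra (-0.67) and Pdgfa (-0.48), and the list median was -0.48. Of 10 other pericyte and mural cell genes, 4 were lower, namely Cspg4 (NG2, -2.06), Ndufa4l2 (-1.98), Gucy1a1 (-1.08) and Cox4i2 (-1.07), and none was higher. Of 9 myofibroblast and tumor fibroblast genes, 4 were lower, namely Lrrc15 (-1.53), Fap (-0.98) and the collagens Col1a1 (-0.90) and Col3a1 (-0.65). Of 6 resting fibroblast genes, 4 were lower, among them Lum (-2.36), Col15a1 (-2.30) and Dpt (-1.57), and Pi16 was higher (1.35).

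The effect of radiotherapy was then examined within each model. Over the mean of both antibodies, irradiated primary tumors had less Acta2 and more Myh11 than unirradiated ones, while the other 7 members did not pass the test. That is 1 of 9 lower, beside 14.2% of all genes lower, and 1 of 9 higher, beside 16.8% higher. In transplants no member passed (7.23% of all genes changed). The median log2 fold change of the members was -0.31 in primary tumors and -0.06 in transplants, against 0.00 and -0.02 over all genes.

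Acta2 fell in primary tumors by 1.96-fold (log2 fold change -0.97 ± 0.34 (SE), 95% CI -1.67 to -0.28, adjusted p = 0.0281). Its 2 component differences were -0.82 ± 0.49, adjusted p = 0.240 with isotype and -1.12 ± 0.49, adjusted p = 0.128 with anti-PD-1, neither past the threshold alone. The call was lost without unirradiated anti-PD-1 primary tumor 3, the highest of its group at 937 CPM (-0.76, adjusted p = 0.0795). It was also lost without a low-count filter (adjusted p = 0.0502), by limma voom (adjusted p = 0.0528) and with the compared groups fitted alone (adjusted p = 0.0665). In transplants the estimate was of like size, -1.04 ± 0.49 with an adjusted p of 0.223. With the compared groups fitted alone Acta2 passed in transplants (-1.01, adjusted p = 0.0106), though not in primary tumors. All 4 transplants given 20 Gy and isotype were below all 4 untreated transplants for Acta2, and all 4 given the combination were below all 4 given anti-PD-1 alone. How many of all genes separated these groups in the same way was not counted, so the orderings add no evidence to the test.

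Myh11 rose in primary tumors over the mean of both antibodies (log2 fold change 1.49 ± 0.50 (SE), 95% CI 0.48 to 2.51, adjusted p = 0.0212) and with isotype alone (2.00 ± 0.72, adjusted p = 0.0472), where it was the 1 member higher beside 9.19% of all genes. Single tumors carried these calls. With isotype, irradiated primary tumor 2 had 86.5 CPM of Myh11 at a summed skeletal muscle level of only 596 CPM, and the other 7 irradiated tumors of that group had at most 20.0 CPM. With the combination, primary tumor 4 had 79.0 CPM at a skeletal muscle level of 72723 CPM, along with 379 CPM of Rgs5 and 14.8 CPM of Lmod1. The Myh11 call with isotype also failed in 10 of the 16 fits that left out a transplant (adjusted p up to 0.0529) and without unirradiated anti-PD-1 primary tumor 3 (adjusted p = 0.0501). Without the first tumor the log2 fold change was 0.96 over both antibodies (adjusted p = 0.108) and 0.97 with isotype (adjusted p = 0.308), and without the second the mean was 0.82 (adjusted p = 0.172). By limma voom neither Myh11 call passed (adjusted p = 0.199 over both antibodies and 0.235 with isotype), and the call with isotype was also lost without a low-count filter (adjusted p = 0.0906) and with the compared groups fitted alone (adjusted p = 0.0501). With skeletal muscle as a covariate the mean was 1.13 (adjusted p = 0.0388). The part of skeletal muscle in the Myh11 result was not otherwise tested.

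Actg2 showed 2.57 ± 0.95, adjusted p = 0.0522 with isotype and -2.05 ± 0.93, adjusted p = 0.143 with anti-PD-1 in primary tumors, opposite in sign and neither past the threshold. With the skeletal muscle covariate both passed, at 2.77 (adjusted p = 0.0208) with isotype and -2.67 (adjusted p = 0.0324) with anti-PD-1. The isotype difference also passed by DESeq2 (adjusted p = 0.0113) and with the compared groups fitted alone (adjusted p = 0.0198), and the anti-PD-1 difference without combination primary tumor 4 (-3.37, adjusted p = 0.0237). Irradiated isotype tumors had 0.613 to 15.7 CPM with a median of 2.03, and unirradiated ones 0.235 to 2.05 CPM with a median of 0.837. With anti-PD-1, 0 of 9 members passed in primary tumors beside 11.2% of all genes. In transplants 0 of 9 passed with isotype (1.92%) and 0 with anti-PD-1 (0.595%).

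The lists around the members moved in primary tumors over the mean of both antibodies as follows, beside 14.2% of all genes lower and 16.8% higher. Of 16 smooth muscle contractile genes, 5 fell, Smtn (-0.70), Actn1 (-0.56), Flna (-0.56), Vcl (-0.55) and Csrp1 (-0.36), and Des rose (2.41). Heyl fell (-1.27) among the regulators, Rhoa (-0.23) in contraction signalling, Pdgfra (-0.61) and Pdgfc (-0.53) in the Pdgfrb pathway, and Cspg4 (-1.15) and Mcam (-0.43) among mural genes. Lrrc15 fell (-1.23) among myofibroblast genes, and Cd34 (-1.19) and Dpt (-0.96) among those of resting fibroblasts. Skeletal muscle genes rose in 7 of 9 cases (median 2.37) and leukocyte genes in 5 of 7, and their part in the members' values was not tested. The summed skeletal muscle level ran from 59.1 to 5549 CPM in untreated primary tumors, 72.4 to 7139 with anti-PD-1, 270.2 to 42683 at 20 Gy with isotype and 14.0 to 72723 with the combination, and the leukocyte level from 1347 to 3426, 1313 to 2897, 2155 to 5449.8 and 1362 to 6689 CPM. In transplants, Pdgfb rose (0.68), Pdgfc fell (-1.14), Kdr, an endothelial gene, rose (0.98) and 4 of 7 leukocyte genes rose. Of all 19327 genes there, 1131 were higher and 267 lower.

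**Figure D3:**
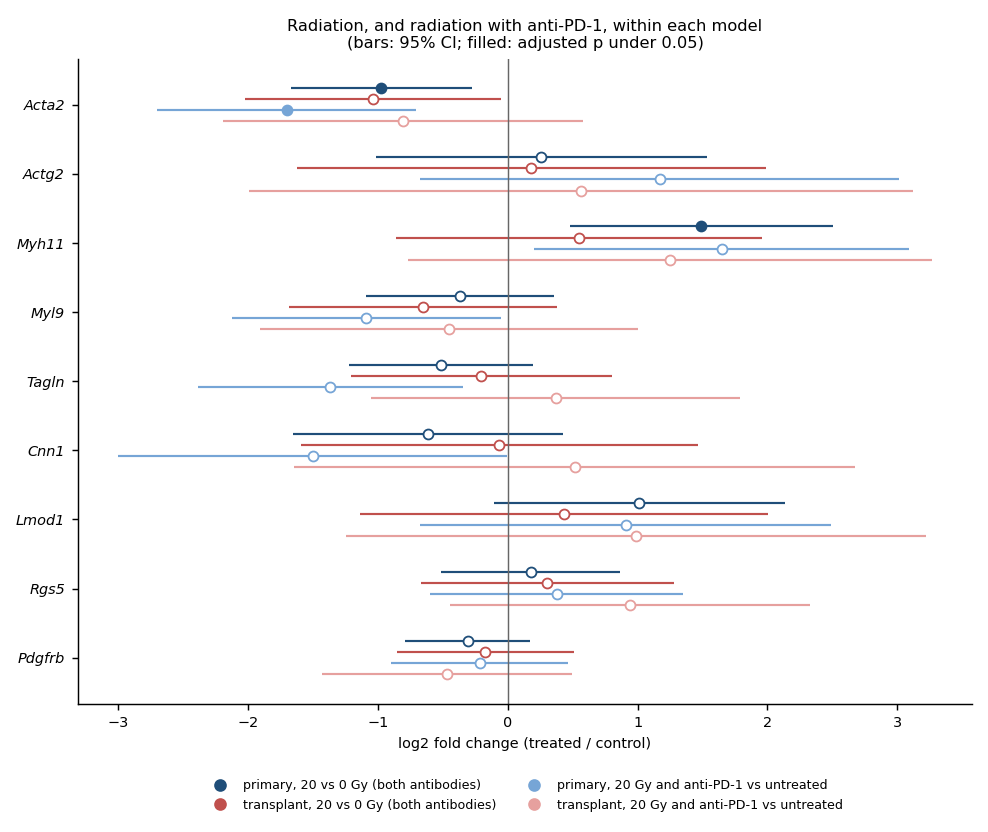
Effect of 20 Gy over 0 Gy (mean of both antibodies) and of the combination over untreated (log2 fold change, 95% CI) for each gene in primary tumors and transplants, with filled points at an adjusted p under 0.05. Acta2 is lower and Myh11 higher after 20 Gy in primary tumors, Acta2 is lower with the combination there, and no transplant point is filled.

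Anti-PD-1 against isotype gave 0 called genes in each of the 4 comparisons by edgeR (0% of 19327 genes), and limma voom also called 0 genes in each. At an unadjusted p under 0.05, unirradiated primary tumors had 1 member, Actg2 (3.22, adjusted p = 0.880), beside 3.66% of all genes, carried by tumors 3 and 5 with 53.3 and 11.5 CPM. Irradiated primary tumors had 2, Tagln (-1.19, adjusted p = 0.433) and Cnn1 (-1.88, adjusted p = 0.410), beside 10.1%. Transplants had 0 at either dose, beside 0.678% unirradiated and 2.65% irradiated. Over all genes, DESeq2 called none of the members but 2 higher and 4 lower in unirradiated primary tumors, 1 higher and 0 lower in unirradiated transplants, 36 higher and 9 lower in irradiated primary tumors, and 1 higher and 0 lower in irradiated transplants.

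The combination of 20 Gy and anti-PD-1 was compared with untreated tumors. In primary tumors Acta2 fell (log2 fold change -1.70 ± 0.50 (SE), 95% CI -2.71 to -0.70, adjusted p = 0.0136), the 1 of 9 members lower, beside 7.44% of all genes. Primary tumors given the combination had 32.2 to 318 CPM with a median of 154 of Acta2, against 64.7 to 1005 CPM with a median of 553 untreated. Tagln missed the threshold (-1.37 ± 0.51, adjusted p = 0.0511) and Myl9 (-1.09 ± 0.51, adjusted p = 0.131) and Cnn1 (-1.50 ± 0.74, adjusted p = 0.150) did as well. Myh11 was higher without passing (1.65, adjusted p = 0.0995). By DESeq2 both Tagln (-1.32, adjusted p = 0.0326) and Myh11 (1.73, adjusted p = 0.0423) passed. By edgeR Tagln passed without unirradiated anti-PD-1 primary tumor 3 (-1.37, adjusted p = 0.0492). For Actg2 the fitted mean was higher with the combination (1.17) although the median was lower, 0.467 against 0.837 CPM, and tumor 4 alone had 11.03 CPM. In transplants 0 of 9 members passed (4.41% of all genes), with adjusted p from 0.529 to 0.883.

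Whether the models responded differently was tested by interaction terms. For radiation 0 of 9 members passed (0.0259% of all genes, 5 genes), and for the combination 0 of 9 (0% adjusted, and 6.4% of all genes at an unadjusted p under 0.05, among them no member). DESeq2 called 26 genes higher and 43 lower for the former and 2 and 2 for the latter, and limma voom 4 and 3, and 0 and 0, with no member by either tool. The largest differences of response for the combination were 2.02 ± 1.31 for Cnn1 (adjusted p = 0.866) and 1.74 ± 0.87 for Tagln (adjusted p = 0.788), each higher in transplants. For Acta2 the radiation interaction was -0.07 (95% CI -1.26 to 1.13), so that a difference of 1 log2 unit in either direction lies within the interval.

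Members that varied together across tumors of the same group are set out in 2 sets, grouped after their values were seen. With the group means taken out, the 6 pairs among Acta2, Myl9, Tagln and Cnn1 had Pearson's r of 0.78 to 0.95 over 32 primary tumors and 0.70 to 0.95 over 16 transplants. The 3 pairs among Myh11, Lmod1 and Rgs5 had r of 0.62 to 0.83 and 0.84 to 0.91. Across the sets r was 0.10 to 0.69 (median 0.30) in primary tumors and 0.50 to 0.92 (median 0.73) in transplants. In transplants that median lay close to the 0.75 within the first set. Actg2 was put in neither set. With Myh11, Lmod1 and Rgs5 it had r of 0.48, 0.69 and 0.40 in primary tumors and 0.94, 0.78 and 0.89 in transplants. With Acta2, Myl9, Tagln and Cnn1 it had 0.40, 0.42, 0.38 and 0.51, and 0.63, 0.68, 0.78 and 0.86. Leaving out the 2 tumors farthest from the median of the first-named gene lowered some r in transplants. Acta2 then had 0.65 with Myl9, 0.60 with Tagln and 0.49 with Cnn1. Myl9 had 0.92 with Tagln and 0.72 with Cnn1, and Tagln had 0.71 with Cnn1. In primary tumors these pairs had 0.73 to 0.95. All these values share library and dissection and carry no test.

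In primary tumors the skeletal muscle list had higher r with the second set, 0.56 with Myh11, 0.60 with Rgs5 and 0.70 with Lmod1, than with the first, 0.05 with Tagln to 0.34 with Cnn1. In transplants the sets overlapped, with r of 0.71 for Rgs5, 0.83 for Myh11 and 0.93 for Lmod1 against 0.58 for Acta2, 0.65 for Myl9, 0.66 for Tagln and 0.77 for Cnn1. For Lmod1, Spearman's rank correlation in primary tumors and transplants was 0.70 and 0.91, and without the 2 farthest tumors r was 0.62 and 0.89. The list of other pericyte genes had r of 0.57 with Lmod1 to 0.78 with Rgs5 in the second set and 0.10 with Tagln to 0.29 with Myl9 in the first in primary tumors. In transplants it had 0.85 to 0.94 in the second set and also 0.71 to 0.80 in the first, and Actg2, in neither set, had 0.89. Pdgfrb, in primary tumors and transplants in turn, had r of 0.33 and -0.70 with Rgs5 and 0.64 and 0.57 with the myofibroblast list.

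The genes most like the 7 contractile members by r with the mean standardised level of those 7 over all 48 tumors, among those with an average log2 CPM of at least 2, were Mrvi1 (0.87), an IP3 receptor-associated gene, Map4 (0.77), Podxl2 (0.74), Nacc2 (0.70) and Ccn2 (0.69). With group means taken out, the nearest included Mrvi1 (0.85), Map4 (0.73), Nacc2 (0.68) and Jph2 (0.68). For the mean of Rgs5 and Pdgfrb, with group means left in, the nearest were Tek (0.79), Man1c1 (0.78), Col1a1 (0.78), Abca8a (0.77) and Notch3 (0.77). With group means taken out they were Itga1 (0.80), Ptprb (0.80), Zfp423 (0.78), Notch3 (0.78) and Tek (0.78). Rgs5 and Pdgfrb had r of only 0.33 with each other in primary tumors and -0.70 in transplants. A gene near their mean need not follow either of them.

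**Figure D4:**
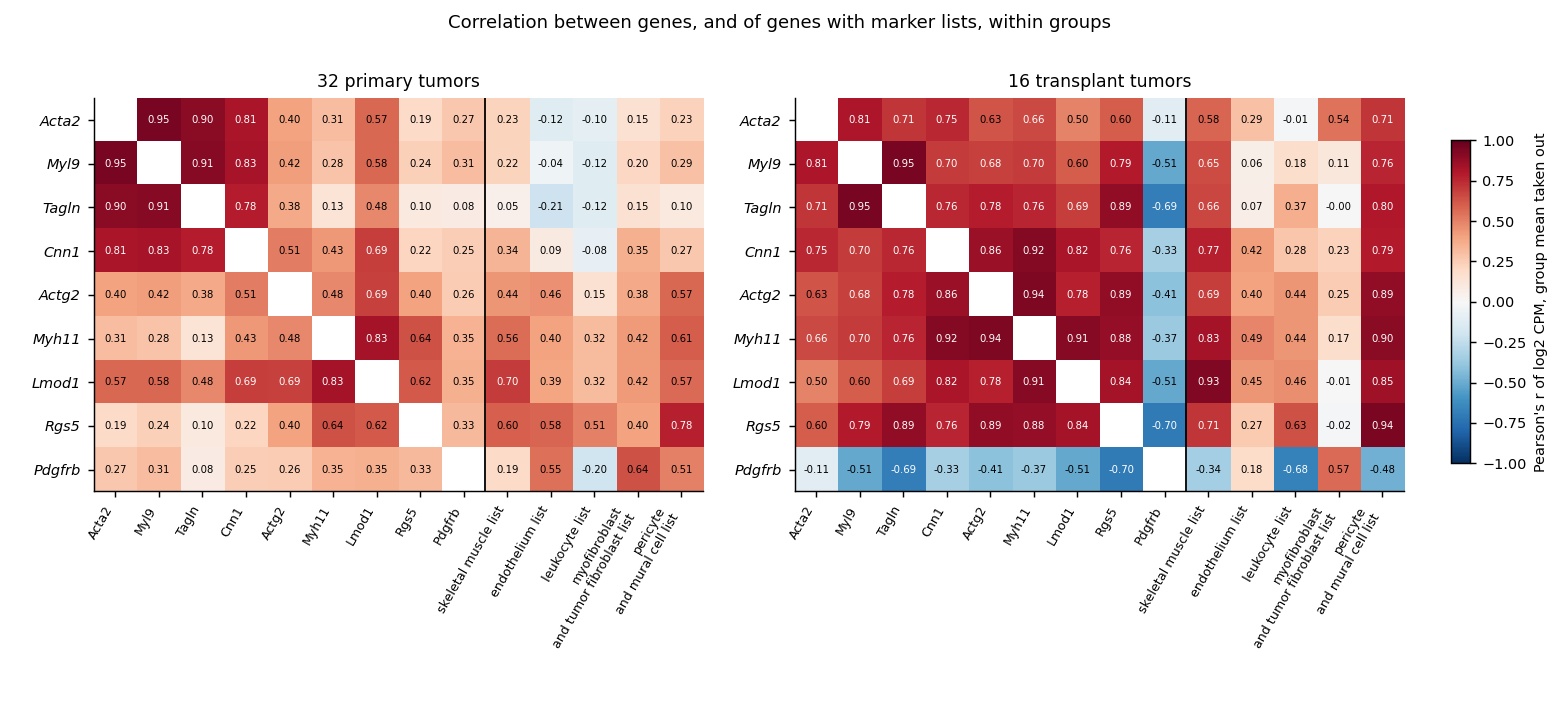
Pearson's r between the 9 genes and 5 marker lists (log2 CPM with group means taken out) over 32 primary tumors and 16 transplants. Pairs among Acta2, Myl9, Tagln and Cnn1 have r from 0.70 to 0.95 over both models. In primary tumors Myh11, Lmod1 and Rgs5 have higher r with the skeletal muscle and pericyte lists than Acta2, Myl9, Tagln and Cnn1. In transplants Acta2, Myl9, Tagln and Cnn1 too have r of 0.58 to 0.80 with these lists. Their r with Myh11, Lmod1 and Rgs5 there is 0.50 to 0.92, so they do not stand apart.

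The 402230 libraries, 1 each and with no replicate, were scaled with the tumors. The library labelled parental tumor, which had few reads of leukocyte and endothelial genes, had 156 CPM of Acta2 (95% Poisson interval 152 to 160, counting error only), above the 84.8 to 134.9 CPM of untreated transplants. It had 20.7 CPM of Tagln and 14.9 CPM of Myl9, the latter below the transplants' 21.1 to 40.4. Rgs5, at 0.290 CPM from 13 reads, was far below the 24.9 to 105.3 CPM of untreated transplants, and Myh11 had 0.067 CPM from 3 reads. Cnn1 (0.223 CPM), Lmod1 (0.112) and Actg2 (0.0894) rested on 10, 5 and 4 reads. Pdgfrb had 59.2 CPM, below the lowest untreated transplant (73.9) and the lowest untreated primary tumor (86.1). The library labelled cell line had 54.4 CPM of Acta2, 22.9 of Tagln, 19.0 of Myl9, 105.8 of Pdgfrb and 31.5 of Rgs5. Its Acta2 lay below the lowest untreated transplant (84.8) and the lowest untreated primary tumor (62.7). Its Myl9 lay below the transplants too. The mural gene Rgs5 and Myh11 (1.19 CPM) were thus higher in this library than in the one labelled parental tumor. Actg2 (0.0867) was low in both.

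**Figure D5:**
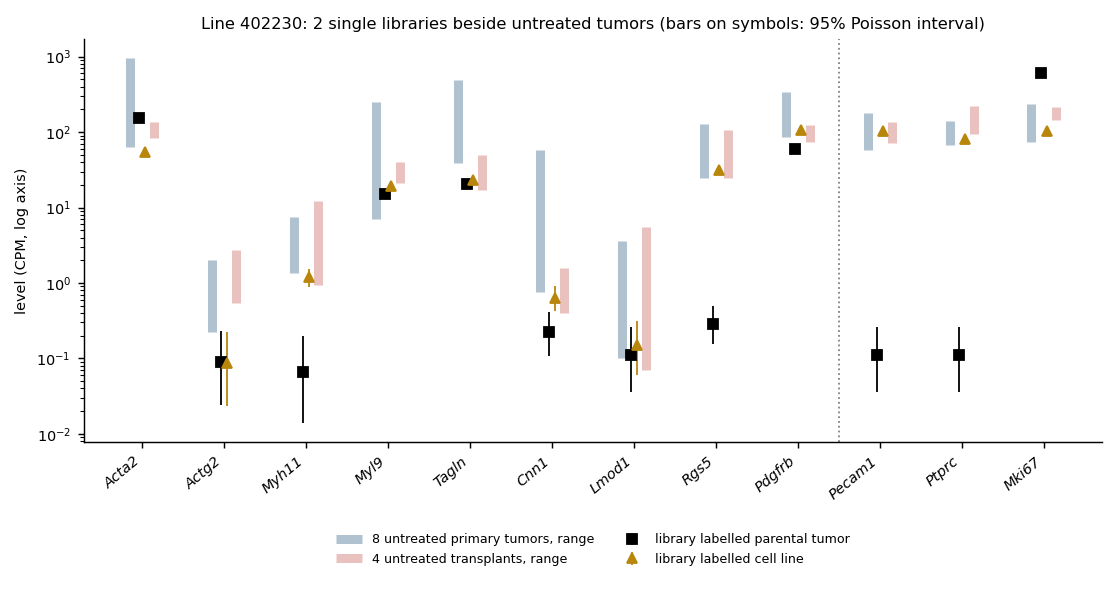
CPM (log axis) of each gene in the library labelled parental tumor and the library labelled cell line of 402230, 1 library each, beside the lowest to highest value of 4 untreated transplants and 8 untreated primary tumors. Acta2 of the library labelled parental tumor lies at 156 CPM, above the transplants, and its Rgs5 at 0.290 CPM lies below every tumor shown. Acta2 of the library labelled cell line lies at 54.4 CPM, below every tumor shown.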

How the data were processed

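RNA-seq libraries of 48 sarcomas and 2 libraries of the line 402230 were made with a stranded mRNA kit. The deposited values are raw counts per gene, which the authors obtained by trimming (Trimmomatic 0.36), alignment to mm10 (STAR) and counting over GENCODE M17. Whether counting used strand is not given in the sources used here. Gene identifiers were matched to symbols of GENCODE M21 without the version (37408 of 37469 matched).

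Tests used edgeR 4.0.16 under R 4.3.3 (TMM, filterByExpr by group, robust quasi-likelihood fit of 8 groups, Benjamini-Hochberg over 19327 genes, threshold 0.05) in 19 comparisons. The labels give no batch or pairing and do not say whether tumors shared a litter. Log2 CPM used a prior count of 2. DESeq2 1.42.0, limma 3.58.1 voom, other filters, fits on the compared groups only, a skeletal muscle covariate and leaving out libraries were alternatives. The procedure was tested on simulated data. The members and lists (11 lists, 92 genes) were chosen with earlier results of these data known. From each list up to 4 genes past the threshold with the largest change over the mean of 4 treatments were named, and the others named were chosen after their values were seen. Intervals on counts cover counting error only. Members without a promoter entry and protein sequences are not analysed here.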

Additional observations from a re-analysis of the deposited data

Results flagged for a closer look

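The Myl9 level of untreated transplant 4, 5.33 on the log2 CPM scale (40.3 CPM), lay apart from the other 3 untreated transplants (group median 4.51). Its gap to the nearest of them was 0.895 of the group's range, above Dixon's 95% critical value of 0.829 for 4 samples. Among 72 combinations of member and group examined this was the only one of its kind, and chance alone flags about 1 in 20 groups.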

How the results depend on the processing

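Among settings other than leaving out a library, 18 counts of members called moved by more than 1.5 times. Over the 20 calls of members, these settings gave 140 values, of which 18 lost the call. Leaving out each transplant gave 320, of which 38 lost it, and leaving out 1 of 3 primary tumors gave 60, of which 7 lost it. None reversed. Over the mean of 4 treatments the model count stayed at 5 with any transplant left out. Without a low-count filter the counts of members were 2 for untreated tumors and 0 for the combination. For radiation in primary tumors they were 0 with isotype and 1 over both antibodies. Of 36854 genes, 837 were lower in untreated transplants and 397 with the combination. Radiation in primary tumors gave 1660 higher and 1285 lower with isotype, and 3258 and 2461 over both antibodies. Fitted on the compared groups only, the combination's model comparison called 0 members. That fit called 2 genes higher and 0 lower of 17674, so its count says nothing about the members. Radiation over both antibodies called 1 member in primary tumors (Myh11), beside 2591 genes higher and 2084 lower of 17770. In transplants it called 1 (Acta2), beside 1694 higher and 738 lower of 17746. By limma voom the counts of members were 1 for untreated and 1 for anti-PD-1 model comparisons, beside 945 and 611 of 19327 genes lower. For radiation in primary tumors they were 0 with isotype, beside 1600 genes higher and 1656 lower. Over both antibodies 0 members were called as well, beside 2454 higher and 2701 lower. DESeq2 called 4 members lower in the combination's model comparison, beside 1332 of 19311 genes lower (719 of 19327 by edgeR). In primary tumors it called 2 for radiation with isotype, beside 2284 genes higher and 1638 lower. For the combination there it called 3 (Tagln, Myh11 and Acta2), beside 2934 higher and 1401 lower. With the skeletal muscle covariate, radiation in primary tumors gave 2 members with isotype, beside 1748 genes higher and 1646 lower of 19327. With anti-PD-1 it gave 1, beside 1498 higher and 859 lower. A further setting added the library labelled parental tumor to the untreated primary tumors. The combination's model comparison then gave 0 members, beside 226 genes higher and 457 lower of 19362. Radiation with isotype in primary tumors gave 2, beside 2047 higher and 2151 lower. The markers of that library went against its label, so this setting is no check of those counts. The causes of these changes were not tested.

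Leaving out transplants in turn gave 2 to 4 members for untreated tumors, 1 to 2 with anti-PD-1, 1 to 4 at 20 Gy with isotype, 0 to 1 with the combination, and 0 to 1 for radiation with isotype in primary tumors. Leaving out 1 of 3 primary tumors, chosen after seeing the data, gave 1 to 2 for anti-PD-1, 3 to 4 at 20 Gy with isotype, 1 to 2 for radiation with isotype, 0 to 1 for radiation with anti-PD-1, 1 for radiation over both antibodies and 1 to 2 for the combination in primary tumors. The shares over all genes in these fits are not given here. Without TMM, by library totals, the library labelled parental tumor had 144.02 CPM of Acta2, 13.8 of Myl9, 19.1 of Tagln and 54.7 of Pdgfrb, and the library labelled cell line 60.9, 21.3, 25.7 and 118.4 with 35.2 of Rgs5. No paired analysis was possible because the labels give no replicate numbers that pair tumors. Depth limits Actg2 and Lmod1, whose lowest tumors rest on 3 reads.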
